A study of Mus musculus with 36 samples.

Results

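Ago2-bound mRNA fragments with seed sites for the gut miRNAs miR-194 and miR-192/miR-215 were examined in mouse colonic tumours. The members are the peaks for which the authors' annotation lists an 8mer or 7mer-m8 site of either family, 381 of 7585 annotated peaks and of 7730 merged peaks in all. A 7mer-m8 site pairs with bases 2 to 8 of the miRNA, and an 8mer site has in addition an A opposite base 1. Of the members, 288 carried a site of miR-194-5p and 39 a site of miR-192/miR-215, a family formed by miR-192-5p and miR-215-5p. A further 60 were listed for miR-194-2-3p, the other arm of a miR-194 hairpin, which has a different seed and was kept as a set of its own. Peaks with sites of miR-194-5p and miR-192/miR-215 together numbered 2, and 4 carried both miR-194 arms.

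The tumours were from C57BL/6 mice that all carried Halo-Ago2/+, an Ago2 allele with a Halo tag for pulldown, Villin-CreER/+, an inducible Cre driven by the gut epithelial Villin promoter, and floxed Apc on both chromosomes, Apc(fl/fl). The group called WT had unaltered K-Ras, and the group called G12D had in addition the oncogenic allele K-Ras-G12D/+. Recombination was induced at 8 to 12 weeks of age with an enema of 4-hydroxytamoxifen (200 µl at 5 mg/ml), and tumour lawns along the colon were taken from moribund animals and crosslinked 3 times with UV at 400 mJ/cm2. Each of 12 tumours, 6 per genotype with 3 in each of 2 batches, gave an mRNA, a miRNA and an input-control library. The labels do not state that each number is a separate mouse, and p-values rest on the spread among the samples as labelled. Tumour lawns hold other cells besides epithelium, and in bulk tissue fewer cells of a type and less RNA per cell cannot be told apart.

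Ago2 carries mature miRNAs to mRNAs that pair with the seed, usually in the 3' UTR, and lowers the output of those mRNAs. miR-194, miR-192 and miR-215 are abundant in the gut epithelium, are transcribed from paired genes in a pair of clusters, and are known as markers of epithelial differentiation. miR-192 and miR-215 have the same seed and so the same predicted targets, while miR-194 has another, and each cluster therefore supplies both families.

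The mature sequences are printed to show which arms share a seed, with bases 2 to 8 in capitals (RefSeq, GRCm38.p6).
miR-194-5p: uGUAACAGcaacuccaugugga
miR-192-5p: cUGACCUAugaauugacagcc
miR-215-5p: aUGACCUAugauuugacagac
miR-194-2-3p: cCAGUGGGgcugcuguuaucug
miR-194-1-3p: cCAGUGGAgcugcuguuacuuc
The seed UGACCUA is common to miR-192-5p and miR-215-5p and pairs with the site TAGGTCA. The seed of miR-194-5p, GUAACAG, pairs with CTGTTAC. The 3p arms of the miR-194 genes differ from each other in the last seed base, and the site listed by the authors, CCCACTG, is that of miR-194-2-3p. The same mature miR-194-5p comes from Mir194-1 at chr1:185313319-185313385, 195 bases from the hairpin of Mir215, and from Mir194-2 at chr19:6264643-6264728, 115 bases from that of Mir192.

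No genome was used, so the bases of a member peak could be read only where a RefSeq promoter window covers it. Among 57 peaks touching such a window, 4 were members, and the listed site lay in the covered part of 2 of them. A stretch of 30 bases around each of these is shown as an example of what the annotation calls a site, with the site in capitals.
Vps16, 5' UTR, plus strand, chr2:130424389-130424418: ctagacatggaCTGTTACActgcgaactgg
Lamb3, 3' UTR, plus strand, chr1:193343627-193343656: aaggtactgttCCCACTGAgcctgtgcttg
Both are 8mer sites, for miR-194-5p in Vps16, a subunit of a vesicle-tethering complex, and for miR-194-2-3p in Lamb3, a laminin chain. No other peak touching a window held the 7 letters of any of the 3 sites on its own strand in the covered part. On either strand, CTGTTAC occurred in 2.63% of 32815 promoter windows of 300 bases, TAGGTCA in 2.61% and CCCACTG in 7.05%.

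The Vps16 stretch also shows how a peak can be listed for several miRNAs. The site of miR-132-3p and miR-212-3p, GACTGTT, and that of miR-21a-3p, TGCTGTT, each share their last 5 letters with the first 5 of CTGTTAC, so that the runs GACTGTTAC and TGCTGTTAC hold 2 sites each. The Vps16 peak holds the first of these and is listed for both families. The seeds behind the overlap are again in capitals.
miR-132-3p: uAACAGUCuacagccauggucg
miR-21a-3p: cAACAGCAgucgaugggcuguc
Of the 288 miR-194-5p peaks, 37 (12.8%) were also listed for miR-21-3p, against 1.73% of annotated peaks without a miR-194-5p site. A further 27 (9.38%) were listed for miR-132-3p/miR-212-3p, against 0.452%, and these made up 45.0% of the 60 peaks with that entry. No peak had all 3, since 64 had at least 1 of the neighbours and 224 had neither. Among those 224 peaks, 32.6% had any other 8mer or 7mer-m8 entry. In all, 46.9% of miR-194-5p peaks, 56.4% of miR-192/miR-215 peaks and 80.0% of miR-194-2-3p peaks carried a site of a family outside these 3 sets. Of all annotated peaks, 62.7% carried such a site. In the miR-194-2-3p set the most frequent companion was the miR-34-5p family, in 10 peaks. In the miR-192/miR-215 set the miR-15-5p and miR-200-3p families led with 4 peaks each.

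In the miRNA libraries miR-194-5p stood at rank 4 of 596 mature miRNAs by mean normalised count, the read count divided by a size factor per library. Its lowest, median and highest values were 11538, 12560 and 14815 in WT and 11407, 13732 and 14291 in G12D. The ranges overlapped almost wholly, and the means were 12775 ± 1259 (SD, n = 6) and 13399 ± 1027 (SD, n = 6). The log2 fold change was 0.07 (SE 0.08, interval from -0.10 to 0.24, limma adjusted p = 0.648). Of 284 miRNAs tested, 11 (3.87%) passed an adjusted p of 0.05, and no arm of the 4 genes was among them.

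The second family was less abundant. miR-192-5p, at rank 31, averaged 4412 ± 755 (SD, n = 6) in WT and 4569 ± 752 (SD, n = 6) in G12D, with a log2 fold change of 0.05 (SE 0.08, limma adjusted p = 0.754). miR-215-5p, at rank 36, averaged 3346 ± 972 and 3532 ± 834 (SD, n = 6 each), with a log2 fold change of 0.11 (SE 0.19, limma adjusted p = 0.775). The intervals of the log2 fold changes ran from -0.14 to 0.24 and from -0.31 to 0.53. The 2 members of the family were close in level, with a ratio of miR-192-5p to miR-215-5p of 1.35 ± 0.25 (SD over 12 libraries). miR-194-5p exceeded their sum in every library, by a ratio of 1.32 to 2.28 and a mean of 1.70 ± 0.31 (SD, n = 12). It made up 3.46% of all miRNA counts on average and the pair 2.07%. The peak counts stood further apart than the miRNAs, at 288 against 39.

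The passenger arms were scarce. miR-194-2-3p, at rank 112, ranged from 86.0 to 281 in WT, with a median of 243, and from 196 to 311 in G12D, with a median of 299. WT replicate 5 and G12D replicate 1 were the lowest of their groups. The log2 fold change of this arm was 0.40 (SE 0.26, limma adjusted p = 0.451), and in batch 1 alone it was -0.085. miR-192-3p averaged 24.6 ± 18.1 (SD, n = 6) in WT and 32.4 ± 13.4 (SD, n = 6) in G12D, and miR-215-3p 15.1 ± 12.8 and 12.7 ± 5.63. miR-194-1-3p, at 6.78 ± 2.46 and 6.93 ± 4.58, lay under the mean of 10 needed for the test. Across the 12 miRNA libraries the log2 levels most like that of miR-194-5p were those of miR-7a-1-3p (Pearson r = 0.74), miR-700-5p (0.74), miR-194-2-3p (0.66), miR-423-3p (0.61) and miR-374b-5p (0.61). miR-215-5p (0.42) and miR-192-5p (0.39) came at ranks 40 and 50. These libraries differ in genotype, batch and depth, and the values are a description.

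**Figure D1:**
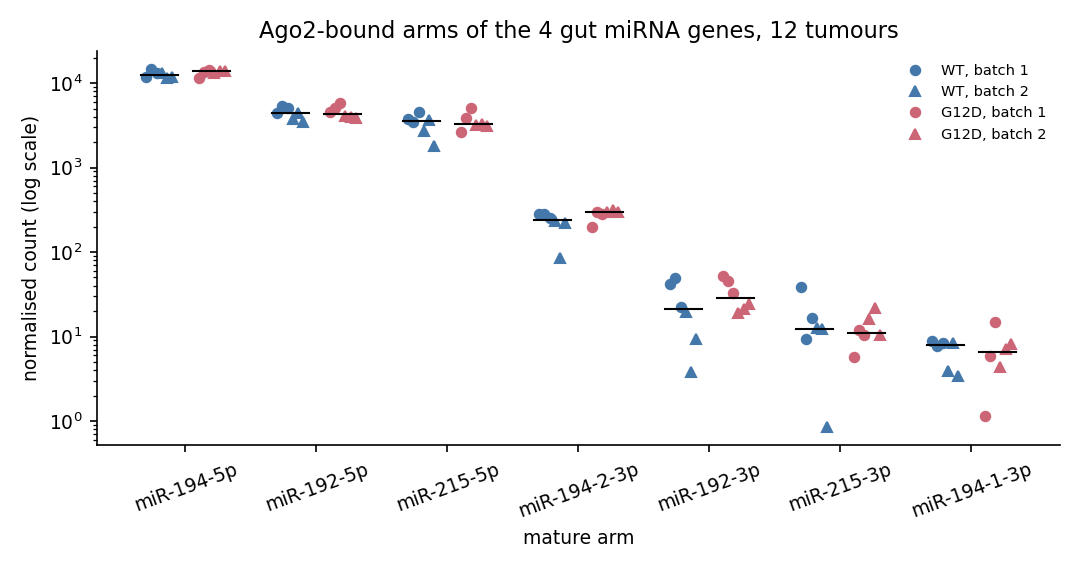
Normalised counts (log scale) of the 7 mature arms of the miR-194, miR-192 and miR-215 genes in each miRNA library, with circles for batch 1, triangles for batch 2 and bars for group medians. miR-194-5p lies between 11407 and 14815 in all 12 libraries, above miR-192-5p and miR-215-5p, and WT and G12D overlap for every arm.

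An 8mer was present in 41.0% of miR-194-5p peaks (118 peaks, Wilson 95% interval 35.4 to 46.7), in 25.6% of miR-192/miR-215 peaks (10 peaks, 14.6 to 41.1) and in 31.7% of miR-194-2-3p peaks (19 peaks, 21.3 to 44.2). The intervals overlap, and the rest of each set had a 7mer-m8 site.

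By the authors' annotation 44.4% of miR-194-5p peaks lay in 3' UTRs (38.8 to 50.2), 23.3% in exons (18.8 to 28.5), 28.1% in introns (23.2 to 33.6) and 4.17% in 5' UTRs. The intron share was well above that of miR-192/miR-215 peaks, of which 2 of 39 were intronic (5.13%, 1.42 to 16.9), and above that of miR-194-2-3p peaks (8.33%, 3.61 to 18.1). Neither interval overlaps that of miR-194-5p, nor does that of all annotated peaks (12.1%, 11.4 to 12.9). The 3' UTR share of miR-192/miR-215 peaks was 56.4% (41.0 to 70.7), near that of annotated peaks as a whole (51.9%). Read the other way, miR-194-5p sites were listed in 8.79% of intron peaks (7.13 to 10.8), 3.25% of 3' UTR peaks (2.74 to 3.85) and 2.75% of exon peaks (2.17 to 3.47). For miR-192/miR-215 these shares were 0.217%, 0.558% and 0.492%.

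**Figure D2:**
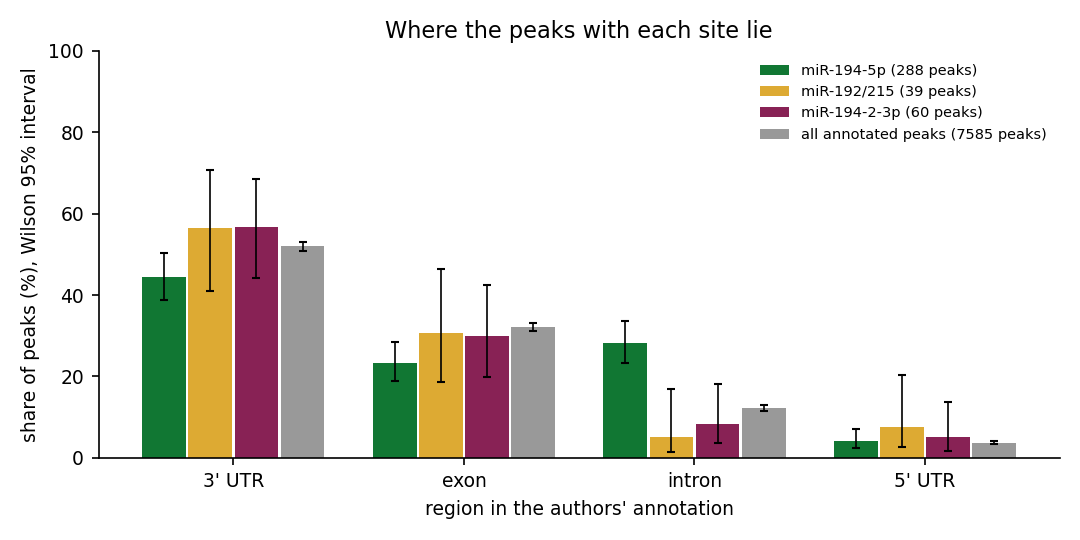
Share of peaks (%) in each region of the authors' annotation for the 3 sets and for all annotated peaks, with Wilson 95% intervals that cover counting error only. The intron bar of miR-194-5p, at 28.1%, stands above the other 3 intron bars, at 5.13% to 12.1%.

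Among the 57 seed entries with at least 30 peaks, miR-194-5p ranked 7th by number of peaks (of 88 entries in all) and first by intron share, where the median entry had 9.18%. The next entries were also above that median, miR-26-5p at 22.2%, miR-21-3p at 20.2%, the miR-17-5p family at 19.6% and let-7-5p at 17.7%. By 3' UTR share miR-194-5p ranked 54th of 57. The intron share was 22.9% among 8mer peaks and 31.8% among peaks with a 7mer-m8 site only. It was 33.1% among the 151 peaks with no entry of another family and 29.7% among those also listed for miR-21-3p. Among the 27 peaks also listed for miR-132-3p/miR-212-3p it was 7.41%, or 2 peaks. The 81 intron peaks came from 80 genes, so the share does not rest on a few loci.

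**Figure D3:**
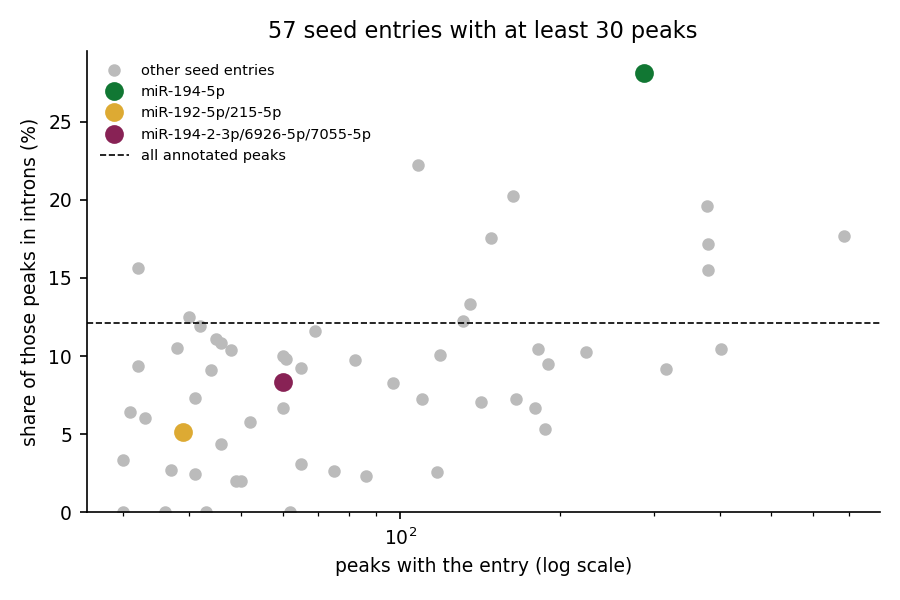
Share of peaks in introns (%) against the number of peaks with the entry (log scale) for 57 seed entries, 1 point each, with the share over all annotated peaks as a dashed line. miR-194-5p is the highest point at 28.1%, and the other gut entries lie below the dashed line.

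The intron peaks with the most signal were in Twf1, an actin-binding twinfilin, Zfp148, a zinc-finger transcription factor, Rere, an atrophin-family corepressor, and Tet3, a 5-methylcytosine oxidase. The Twf1 peak (chr15:94588547-94588598) had values of 14.5, 268 and 423 (lowest, median, highest) in WT and 275, 418 and 611 in G12D. The Zfp148 peak (chr16:33382056-33382117) had 0, 80.3 and 376 in WT and 78.6, 468 and 651 in G12D. The lowest value of Twf1 was that of WT replicate 6 and that of Zfp148 was WT replicate 5, the shallowest libraries, and the groups overlapped in both peaks. The Tet3 peak (chr6:83398855-83398913), described after its values were seen, held sites of both miR-194 arms and ran from 9.06 to 247 in WT and from 53.6 to 351 in G12D. In each library the median log2 level of the intron members was set against that of the 3' UTR members. The intron level less the 3' UTR level was -0.51 ± 0.73 (SD, n = 6) in WT and -0.17 ± 0.55 (SD, n = 6) in G12D. Over all annotated peaks this difference was -0.70 ± 0.62 and -0.42 ± 0.42. For members and for all annotated peaks alike, the intron and 3' UTR medians were 0 in WT replicate 5. In WT replicate 6 the intron median was 0 and the difference -1.77. The differences of the members in WT replicates 1 to 4 were -0.06, -0.93, -0.42 and 0.12.

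The signal in peaks depended strongly on the library. Reads recovered in peaks ranged from 30607 in WT replicate 5 to 974013 in G12D replicate 5, and in WT replicates 5 and 6 59.8% and 34.0% of peaks had no read, against at most 5.85% elsewhere. The median log2 fold change of all 7527 tested peaks, G12D over WT, was 1.33, and 0.38 without these 2 libraries. Fold changes of members are given as fitted, on the log2(value + 1) scale, and relative to that median. Input libraries were not analysed here, so a higher value can mean more RNA of the gene or more of it on Ago2. Peaks were listed on 15 of 20 colon epithelium markers, Vil1, Cdh1, Krt8 and Muc2 among them, on 3 of 12 fibroblast and smooth muscle markers, 1 of 10 leukocyte markers, 1 of 6 nerve markers and 0 of 6 endothelial markers. The summed value of the fibroblast and smooth muscle peaks was 18.1 to 649 in WT and 211 to 659 in G12D, and that of the epithelial peaks 978 to 10762 and 5086 to 11174. Their part in the member values was not tested.

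Members stood at ordinary levels among Ago2 peaks. The median of the mean normalised count was 19.9 for miR-194-5p peaks, 15.6 for miR-192/miR-215 peaks and 26.4 for miR-194-2-3p peaks, against 18.7 for annotated peaks. Within a library the median log2 level of miR-194-5p peaks exceeded that of miR-192/miR-215 peaks by 0.24 ± 0.25 (SD, n = 12), with 8 libraries above 0, 2 at 0 and 2 below. Those at 0 were WT replicates 5 and 6, the shallowest libraries, where the medians of both sets were equal, at 0 and at 1.77. The SD is as large as the difference. Over the other settings tried it was 0.19 to 0.34, except -0.0077 among peaks with a mean of at least 20, a filter that selects on the level compared. Together, miR-194-5p peaks took 3.46% ± 0.94 of the peak signal and miR-192/miR-215 peaks 0.268% ± 0.0435 (SD, n = 12). The mean of the WT libraries was 3.08% and that of the G12D libraries 3.84% for miR-194-5p, and the ranges of 1.15% to 4.42% and 3.24% to 4.43% overlapped. WT replicates 5 and 6, the shallowest libraries, had 1.15% and 2.18%, and WT replicates 1 to 4 had 3.73%, 3.31%, 4.42% and 3.71%.

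Between the genotypes no member passed the test across all peaks. With limma, 0 of 7527 peaks (0%) had an adjusted p under 0.05, and the smallest adjusted p among members was 0.0969. This count changed with WT replicate 4. Without it 3391 peaks (45.1%) were called higher in G12D and 13 lower, and with them 157 of 287 miR-194-5p peaks, 11 of 38 miR-192/miR-215 peaks and 28 of 60 miR-194-2-3p peaks, all higher. At an unadjusted p under 0.05, 121 of 287 tested miR-194-5p peaks (42.2%) and 9 of 38 miR-192/miR-215 peaks (23.7%) were higher in G12D, against 35.9% of all peaks, and none was lower. Lower peaks were rare at that threshold among all tested annotated peaks too, 13 of 7395. Of the miR-194-5p peaks, 217 were on the deposited G12D peak list only, 70 on both lists and 1 on the WT list only. These counts were 29, 10 and 0 for miR-192/miR-215 peaks and 5450, 1986 and 149 for all annotated peaks. The direction of member counts, here and below, is therefore not independent of how the peaks were found. Of the 381 members, 379 had the mean of at least 5 needed for the fit; those left out were on Brd2, with a mean of 3.07, and on the mitochondrial gene mt-Rnr1, at 0 in every library.

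The median log2 fold change was 1.45 for miR-194-5p peaks and 1.14 for miR-192/miR-215 peaks, which is 0.12 above and 0.19 below the median of all peaks. Of the miR-194-5p peaks 166 lay above that median and 121 below; of the miR-192/miR-215 peaks 14 lay above and 24 below. The miR-194-2-3p peaks had a median of 1.18, with 26 above and 34 below. Without WT replicates 5 and 6 the relative medians were -0.02, -0.02 and -0.07. Within batch 1 they were -0.03, -0.17 and 0.05, and within batch 2 0.22, 0.10 and -0.29. The offset of both families from all peaks was thus near 0 in the fit without WT replicates 5 and 6. Within batch 1, which does not hold these libraries either, that of miR-192/miR-215 peaks stayed at -0.17. Intron peaks of miR-194-5p had a relative median of 0.38 (0.03 without WT replicates 5 and 6), and 3' UTR peaks -0.06 in both fits. Over all annotated peaks, intron peaks had 0.14 (0.02 without these libraries) and 3' UTR peaks -0.01 (-0.02). Peaks with a miR-194-5p 8mer had -0.04 and those with a 7mer-m8 only 0.22. Without WT replicates 5 and 6 the values were -0.14 and 0.12.

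**Figure D4:**
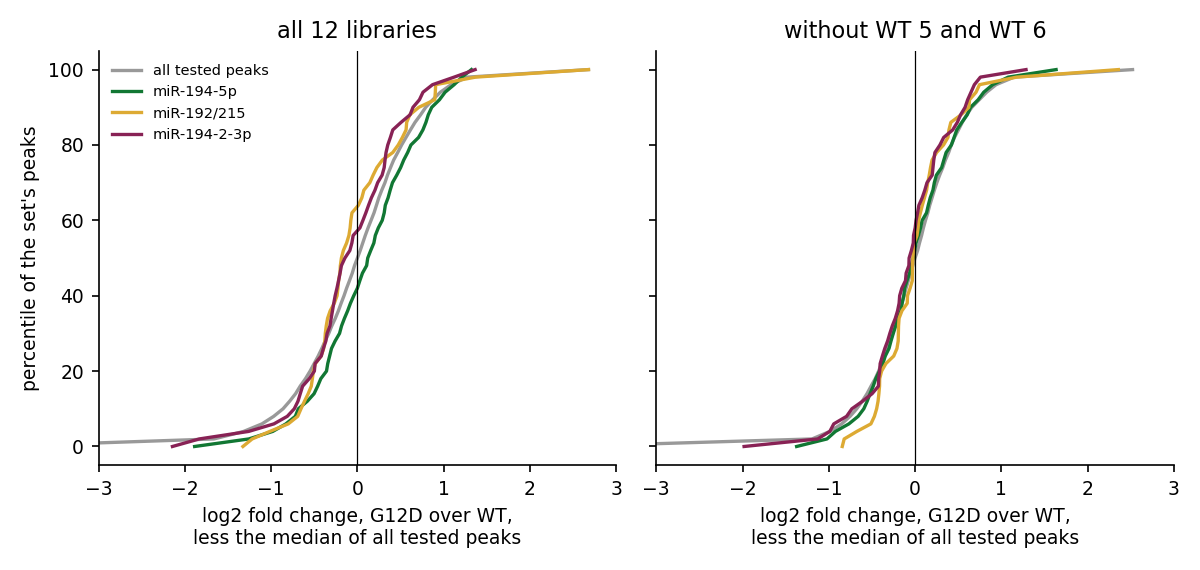
Percentiles of the log2 fold change (G12D over WT) less the median of all tested peaks, for the 3 sets and all tested peaks, with all 12 libraries on the left and without WT replicates 5 and 6 on the right; the x axis leaves out the extremes of all tested peaks. The curve of miR-194-5p lies to the right of that of all peaks on the left, with a median of 0.12, and on it on the right, with a median of -0.02.

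Where a gene had further peaks without a site of the same arm, the member was set against their mean. Of 179 miR-194-5p peaks of this kind 103 had the larger log2 fold change and 76 the smaller, with a median difference of 0.14. For 30 miR-192/miR-215 peaks the split was 13 to 17, with a median of -0.02, and for 42 miR-194-2-3p peaks 19 to 23, with -0.07. miR-132-3p, whose site can overlap that of miR-194-5p, averaged 471 ± 183 (SD, n = 6) in WT and 222 ± 43.9 (SD, n = 6) in G12D (log2 fold change -1.0, SE 0.26, limma adjusted p = 0.0521). The 27 miR-194-5p peaks also listed for it, whose bases were read in Vps16 only, had a relative median of 0.06, with 14 above and 13 below, and the 223 tested peaks with neither neighbour 0.11.

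The authors' deposited table, with 755 of 7613 peaks called higher in G12D (9.92%) and 27 lower (0.355%) at an adjusted p of 0.05, called 28 of 286 miR-194-5p peaks higher (9.79%), 3 of 38 miR-192/miR-215 peaks (7.89%) and 5 of 60 miR-194-2-3p peaks (8.33%). It called no member lower. These shares are close to that of all peaks.

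The largest miR-194-5p peak was in the 3' UTR of S100a14 (chr3:90528178-90528230), an epithelial S100 calcium-binding protein, at rank 13 of all merged peaks. Its values were 77.0, 304 and 945 (lowest, median, highest) in WT and 445, 1999 and 4689 in G12D. The groups overlapped, with 4 of 6 G12D libraries above every WT library, and the means were 435 ± 371 and 2174 ± 1718 (SD, n = 6). The log2 fold change was 2.34 (SE 0.63, limma adjusted p = 0.108), which is 1.01 above the median of all tested peaks and, when WT replicates 5 and 6 were left out, 1.32 above it. In the authors' deposited table it was 2.05 with an adjusted p of 0.0101. The other 7 peaks of this gene, without the site, had a mean log2 fold change of 2.19.

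The other miR-194-5p peaks of highest mean, beside the intron peaks of Twf1 and Zfp148 above, were in exons and 3' UTRs. Tln2, a talin that links integrins to actin, had a 3' UTR peak (chr9:67221097-67221148) also listed for miR-132-3p/miR-212-3p and the miR-200-3p family. It stood at 22.6, 110 and 347 in WT and at 133, 507 and 1054 in G12D, with a log2 fold change of 2.11 (SE 0.70, limma adjusted p = 0.108). Dnajc5, a co-chaperone of secretory vesicles, had the second largest member, an 8mer 3' UTR peak (chr2:181552375-181552443) at 13.6, 356 and 1268 in WT and 176, 406 and 858 in G12D. Here the highest value of all was a WT library, and the log2 fold change of 1.17 turned to -0.25 without WT replicates 5 and 6. Rer1, a Golgi retrieval receptor, had an exon peak at 2.41 to 656 in WT and 137 to 808 in G12D. Trip11, a golgin, had an exon peak at 13.6 to 328 and 127 to 381. Slc7a5, a large neutral amino acid transporter, had an 8mer 3' UTR peak at 0 to 359 and 150 to 400, and its relative log2 fold change was 0.81 with all libraries and -0.36 without WT replicates 5 and 6. An 8mer 3' UTR peak at chr3:36947881-36947932 had medians of 198 in WT and 235 in G12D. All of these ranges overlapped between the genotypes.

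Lamp2, a lysosomal membrane protein, went the other way from most members. Its 8mer 3' UTR peak (chrX:38421678-38421732) had 118, 318 and 592 in WT and 197, 308 and 430 in G12D, with a log2 fold change of -0.08 (SE 0.57, limma adjusted p = 0.9), 1.41 below the median of all peaks. The relative values without WT replicates 5 and 6, in batch 1 and in batch 2 were -0.96, -0.81 and -2.04. The other 7 peaks of Lamp2, without the site, had a mean log2 fold change of 0.39, also below the median of all peaks. The exon peaks of Helz2, an interferon-induced helicase (13.8 to 72.5 in WT and 2.31 to 38.0 in G12D), and Smpdl3a, a phosphodiesterase of the acid sphingomyelinase family (11.7 to 45.3 and 9.17 to 43.6), had relative values of -1.89 and -1.51. Without WT replicates 5 and 6 these were -0.50 and -0.52. The Helz2 and Smpdl3a peaks are 8mer peaks also listed for miR-21-3p. All 37 miR-194-5p peaks with that entry had a relative median of 0.30, with 26 above and 11 below. Without WT replicates 5 and 6 their relative median was 0.07. At the other end were Rere, Gnpat, an enzyme of plasmalogen synthesis, and Acvr1b, a type I activin receptor, with relative values of 1.32, 1.295 and 1.27. Without WT replicates 5 and 6 these were 0.66, 0.64 and 0.80. The Rere intron peak had 4.53, 27.4 and 288 in WT and 53.2, 248 and 562 in G12D, and the highest WT value was that of replicate 4. These members were picked as extremes, and none had a limma adjusted p under 0.108.

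Among the miR-194-5p peaks called higher in the authors' deposited table, Ap2s1, a clathrin adaptor subunit, had 0 to 25.2 in WT and 11.8 to 125 in G12D (deposited log2 fold change 2.04, adjusted p = 0.0082). Arhgef7, an exchange factor for Rac and Cdc42, had 2.41 to 14.8 and 8.20 to 38.5 (deposited 1.74, adjusted p = 0.0118). Zc3h11a, a zinc-finger protein of mRNA export, had 0 to 8.95 and 2.41 to 80.2 (deposited 2.77, adjusted p = 0.013). Mtmr11, a myotubularin-family protein, had 0 to 3.46 and 0.965 to 28.2 (deposited 2.81, adjusted p = 0.00944), values of few reads. All of these peaks were picked for a small adjusted p and were on the deposited G12D peak list only. The WT means of Zc3h11a (4.18) and Mtmr11 (0.821) lay under the minimum of 5 needed for the fit.

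All 6 G12D libraries exceeded all 6 WT libraries in 128 of 7527 peaks (1.7%), in 3 miR-194-5p peaks, in 2 miR-192/miR-215 peaks and in no miR-194-2-3p peak. The miR-194-5p peaks, named after their values were seen, were in Fam204a, in Trappc9, a subunit of a vesicle-tethering complex, and in Rabac1, a Rab-binding protein of the Golgi. The Fam204a 5' UTR peak had 0, 30.7 and 60.4 in WT and 73.3, 103 and 149 in G12D. The Trappc9 exon peak had 0, 26.1 and 40.3 against 44.9, 51.6 and 60.2. The Rabac1 3' UTR peak had 0, 18.8 and 25.7 against 36.2, 49.2 and 80.4. In each case 1 of the 2 shallow WT libraries was at 0, and the other WT libraries were still below every G12D library. Without these 2 libraries the relative log2 fold changes were 0.70, 0.36 and 0.73.

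The miR-192/miR-215 peak that stood furthest apart was in the 3' UTR of Msn (chrX:96168095-96168147), which encodes moesin, a linker of actin to the plasma membrane. Its values in WT replicates 1 to 6 were 7.34, 7.58, 3.35, 11.4, 0 and 0, and in G12D replicates 1 to 6 they were 55.0, 34.6, 34.7, 78.6, 101.1 and 114. No WT library reached the lowest G12D library. The peak was picked as an extreme and was on the deposited G12D peak list only. Its WT mean lay under the minimum of 5 needed for the fit, so it passed that filter through the G12D libraries. The means were 4.94 ± 4.59 and 69.7 ± 33.8 (SD, n = 6), and the log2 fold change was 4.01 (SE 0.74, limma adjusted p = 0.0969), which was 2.68 above the median of all tested peaks. When WT replicates 5 and 6 were left out, this distance was 2.36 and the limma adjusted p was 0.0121. Without WT replicate 4 the limma adjusted p was 0.00935, in a setting that called 45.1% of all peaks higher in G12D. In the authors' deposited table the log2 fold change was 3.40 with an adjusted p of 1.54e-06. The peak was also listed for the miR-200-3p family, and the other peak of Msn, without a miR-192/miR-215 site, had a log2 fold change of 1.94.

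Nras, the other miR-192/miR-215 peak without overlap, encodes a Ras GTPase related to the K-Ras that the G12D allele activates. Its 3' UTR peak (chr3:103067696-103067757) had 13.6, 34.98 and 51.4 in WT and 55.6, 65.9 and 83.8 in G12D. The log2 fold change was 1.10 (SE 0.59, limma adjusted p = 0.16), 0.22 below the median of all peaks with all libraries and 0.26 above it without WT replicates 5 and 6. The 3 further Nras peaks had a mean log2 fold change of 1.61.

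**Figure D5:**
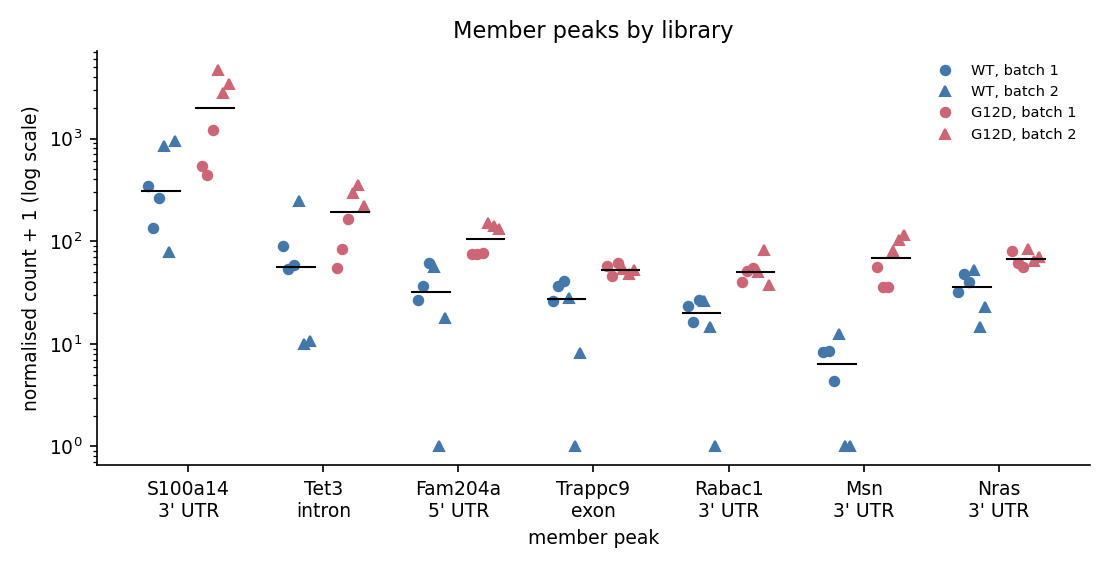
Normalised count plus 1 (log scale) of 7 member peaks in each mRNA library, with circles for batch 1, triangles for batch 2 and bars for group medians; S100a14, Fam204a, Trappc9 and Rabac1 carry miR-194-5p sites, Tet3 sites of both miR-194 arms, and Msn and Nras miR-192/miR-215 sites. The groups overlap for S100a14 and Tet3 and do not for the other 5.

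The miR-192/miR-215 peak of highest mean was in the 3' UTR of Scmh1, a Polycomb protein (chr4:120529965-120530056), at 38.7, 93.7 and 110 in WT and 90.3, 165 and 291 in G12D, with 5 of 6 G12D libraries above every WT library. Its log2 fold change of 0.95 (SE 0.56) lay 0.37 below the median of all peaks, and 0.42 above it without WT replicates 5 and 6. Cnnm4, a magnesium transporter, followed at 16.9 to 58.9 and 21.2 to 142, and Polr2a, the largest subunit of RNA polymerase II, at 0 to 76.0 and 13.9 to 95.4. Mgat4a, an N-glycan branching enzyme, had 0 to 49.9 and 29.9 to 123, and Xpot, the tRNA exportin, 4.82 to 53.3 and 11.1 to 87.2. The interferon-induced Ifit2 had 4.53 to 44.0 and 16.9 to 64.6, Spg20, the gene of spartin, 1.12 to 118 and 5.53 to 66.7, and the 5' UTR peak of Btbd8 14.5 to 36.0 and 27.8 to 63.3. The peak on Uty, a Y-linked histone demethylase gene, had 168 in WT replicate 3 and 191 and 174 in G12D replicates 1 and 2, and at most 22.2 in every other library, a split that crosses the genotypes. Myo1c, an unconventional myosin, had 0 to 23.2 and 16.2 to 43.6 and was called higher in the authors' deposited table (log2 fold change 1.56, adjusted p = 0.0254). Msn, Myo1c and Ncoa3 were the 3 miR-192/miR-215 peaks called there.

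Genes with peaks of both families numbered 5, Btaf1, Ctnna1, Fut2, Lmo7 and Ncoa3, which is 1.81% of the 277 genes with miR-194-5p peaks and 12.8% of the 39 with miR-192/miR-215 peaks. Of all 3914 genes with a peak, 7.08% had a miR-194-5p peak and 0.996% a miR-192/miR-215 peak. Both sites lay in the same peak in Ncoa3, a nuclear receptor coactivator, and in Fut2, a fucosyltransferase of the gut epithelium. The Ncoa3 3' UTR peak (chr2:166071496-166071573) had a 7mer-m8 site of miR-194-5p, an 8mer of miR-192/miR-215 and a site of miR-24-3p, and stood at 0, 1.68 and 11.4 in WT and at 5.53, 13.2 and 26.3 in G12D (deposited log2 fold change 1.64, adjusted p = 0.0414 in the authors' deposited table). The Fut2 5' UTR peak (chr7:45666197-45666252) had 0, 5.64 and 10.4 against 4.82, 7.01 and 13.9. Ctnna1, the catenin that joins cadherins to actin, had separate intron peaks for the families, at 0 to 41.7 in WT and 4.27 to 70.9 in G12D for miR-194-5p, and at 0 to 9.88 and 0 to 32.5 for miR-192/miR-215.

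In 11 genes 2 peaks carried a miR-194-5p site: Airn, Arhgef7, Capns1, Dhrs9, Dnajc5, Gcnt3, Macf1, Prom1, Rabac1, Rere and Tpd52. No gene had more, and no gene had 2 miR-192/miR-215 peaks. The starts of the peaks lay 105 bases apart in the 3' UTR of Capns1, a calpain subunit, 889 in that of Dhrs9, a retinol dehydrogenase, and 1839 in that of Gcnt3, a mucin-type glycosyltransferase, where the sites share a 3' UTR. In Capns1 both peaks stood at like levels, 0, 24.1 and 56.8 in WT against 25.5, 34.5 and 61.8 in G12D for the 8mer, and 2.41, 23.8 and 35.8 against 21.3, 39.9 and 69.5 for the 7mer-m8. In Gcnt3 the 8mer peak had 0, 6.76 and 11.9 against 11.6, 19.3 and 29.9, and the 7mer-m8 peak 4.53, 15.3 and 29.1 against 14.5, 21.5 and 53.1.

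Of 18 reported miR-194 targets 13 had any peak and 4 of these (30.8%, against 7.08% of all genes with a peak) a peak with a miR-194-5p site, namely Akt2, Dnmt3a, Hbegf and Ptpn12. The 3' UTR peak of Akt2, a kinase of PI3K signalling, had 0, 17.9 and 51.8 in WT and 13.9, 37.0 and 83.9 in G12D. That of Ptpn12, a tyrosine phosphatase, had 0, 18.8 and 26.2 against 14.9, 26.7 and 58.8. The peak of Dnmt3a, a DNA methyltransferase, lay in an intron and had 2.41, 9.18 and 37.0 against 9.17, 30.2 and 57.2. Hbegf, an EGF receptor ligand, had 0, 12.7 and 32.2 against 9.93, 12.5 and 23.5. Of 24 reported miR-192/miR-215 targets 13 had any peak and 0 a miR-192/miR-215 site, where the share of all genes with a peak was 0.996%; Wnk1, a kinase of ion transport on that list, had an exon peak with a miR-194-5p 8mer at 0 to 24.2 and 6.84 to 39.1.

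The other lists are set against the same 7.08% of all genes with a peak, and the counts are too small to order the lists. Of 18 Wnt and crypt genes, 15 had a peak and 2 of these (13.3%) a miR-194-5p site: Cd44, an adhesion receptor (0, 9.93 and 16.8 in WT, 9.26, 19.7 and 32.5 in G12D), and Lgr4, an R-spondin receptor (0, 11.1 and 17.0 against 13.0, 17.6 and 38.7). Lgr4 and Notum, a secreted Wnt inhibitor, had miR-194-2-3p peaks. The Notum 3' UTR peak, described after its values were seen, had 0, 25.2 and 39.0 in WT and 4.63, 6.09 and 18.8 in G12D, and its log2 fold change of -0.82 (SE 0.81) was the lowest of all members. Of 17 MAPK output genes 11 had a peak and 2 of these (18.2%) a miR-194-5p site, Hbegf and Spred1, an inhibitor of Ras signalling. The Spred1 intron peak had 0, 7.24 and 22.2 in WT and 8.68, 33.9 and 78.4 in G12D, with a log2 fold change of 2.501 (SE 0.82, limma adjusted p = 0.108) and, in the authors' deposited table, 1.72 with an adjusted p of 0.0434. Of 15 EMT and adhesion genes 6 had a peak and 2 of these (33.3%) a miR-194-5p site, Ctnna1 and Cdh1, the gene of E-cadherin, whose intron peak had 0, 6.20 and 26.2 against 7.60, 26.0 and 77.9. Vil1, the gene of villin, had an exon peak at 16.9, 45.3 and 197 against 66.4, 143 and 286, also listed for miR-132-3p/miR-212-3p. None of the peaks on listed genes had a limma adjusted p under 0.05, and their groups overlapped in each case.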

How the data were processed

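Per the submitters' processing notes, the tools included STAR 2.5.2b and DESeq2 and the builds mm10 and GRCm38. The sources used here give neither their roles nor the peak caller or the method for seed sites. The deposited signal values are read counts after division, by the authors, by 1 size factor for each library. All were whole multiples of the value of 1 read (0.482 to 4.53 in the mRNA libraries) within 0.001 reads, so reads were recovered. The headers of the peak columns give genotype and number only, and they were read as mRNA libraries. The deposited log2 fold changes and adjusted p-values are the authors' own comparison. The deposited peak list of each genotype has a score of unstated unit, not printed here. A peak was a member when an entry named either family by its whole number.

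Log2(value + 1) was fitted with limma-trend (limma 3.58.1, R 4.3.3) and a batch term over all peaks with a mean of at least 5 and all miRNAs with a mean of at least 10; p-values were adjusted by Benjamini-Hochberg and called at 0.05. The scale understates changes of low features. Intervals of miRNA fold changes are 95%, from limma's SE and the residual degrees of freedom. Wilson 95% intervals on shares of peaks cover the error of counting peaks only. As alternatives, edgeR 4.0.16 and DESeq2 1.42.0 were run on the recovered reads, beside other pseudocounts, filters, scalings, batches and left-out libraries. The fits were tested on simulated data. Named members are, per family, the 10 of highest mean, the 3 highest and 3 lowest by relative log2 fold change among means of at least 20, the 5 of smallest adjusted p in the authors' table, those with both sites, those on listed genes and genes with most members. The members and lists were chosen with earlier results of these data known, so no count over them is independent support.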

Additional observations from a re-analysis of the deposited data

Results flagged for a closer look

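In 110 groups of 6 libraries (55 features, each in WT and G12D) the gap of the highest or lowest library to its neighbour, divided by the range on the log2 scale, was compared with Dixon's 95% critical value, which chance passes in about 1 of 20 groups. It was passed in 8. Of the miRNAs, miR-194-2-3p was low in WT replicate 5 (86.0) and in G12D replicate 1 (196), and miR-194-5p was low in G12D replicate 1 (11407). Of the miR-194-5p peaks, Zfp148 and Ptpn12 were at 0 in WT replicate 5, the shallowest library, and Ap2s1 was at 0 in WT replicate 2. Helz2 was high in WT replicate 5 (72.5). Of the miR-192/miR-215 peaks, Polr2a was low in G12D replicate 3 (13.9).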

How the results depend on the processing

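The number of peaks called between genotypes was 0 with limma (2700 higher at an unadjusted p under 0.05), 787 with DESeq2 and 10 with edgeR on recovered reads, 513 with a pseudocount of 5, 234 in batch 2 alone, 3 without WT replicates 5 and 6, 203 with DESeq2 without them (an alternative chosen after seeing the data) and 0 to 3404 when 1 library was left out, the highest without WT replicate 4. The number of miRNAs called, 11, was 27 with DESeq2, 1 in batch 1, 0 in batch 2, 6 without the batch term, 6 with the replicate block and 5 to 16 with 1 library left out. No arm of the gut miRNAs was called in any setting. The relative median of miR-194-5p peaks, 0.12, moved by less than the library spread but crossed 0: it was -0.030 in batch 1, -0.022 without WT replicates 5 and 6 (-0.0078 with DESeq2), -0.036 for 8mers and -0.063 for 3' UTR peaks, and 0.021 to 0.17 with 1 library left out (0.021 without WT replicate 2, 0.042 without G12D replicate 3, 0.044 without WT replicate 6, 0.066 without G12D replicate 5). That of miR-192/miR-215 peaks, -0.19, was 0.10 in batch 2 and -0.23 to -0.051 with 1 library left out (-0.051 without WT replicate 5, -0.096 without WT replicate 6, -0.098 without G12D replicate 1). The level of miR-194-5p over miR-192/miR-215 peaks was -0.0077 among means of at least 20. With 8mer sites only, 30% of miR-192/miR-215 peaks lay in 3' UTRs, and 22.9% of miR-194-5p peaks in introns (chosen after seeing the data). Of the 45 named peaks, none past the threshold with limma, 29 passed it without WT replicate 4, 12 with a pseudocount of 5, 10 with DESeq2, 8 in batch 2 alone, and 1 (Msn) with edgeR and without WT replicates 5 and 6. The causes were not tested.

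Some log2 fold changes of named features changed sign with the setting. In batch 1 alone they were -0.026 for miR-194-5p, -0.085 for miR-194-2-3p, -0.077 for miR-215-5p, -0.96 for miR-215-3p, -0.16 for Dnajc5, -0.23 for the chr3:36947881-36947932 peak and -0.069 for Hbegf. In batch 2 alone they were 0.21 for Lamp2, 0.18 for Smpdl3a, -0.48 for Uty and -0.10 for Spg20. Without WT replicates 5 and 6 they were -0.25 for Dnajc5, -0.20 for the chr3:36947881-36947932 peak, -0.064 for the miR-194-5p peak of Ctnna1, -0.063 for Hbegf and -0.032 for Fut2, and with DESeq2 without them -0.29 for Dnajc5, -0.25 for the chr3:36947881-36947932 peak, 0.42 for Helz2, -0.030 for Hbegf, -0.99 for Uty and -0.17 for Fut2. With TMM and with median-of-ratios factors they were -0.10 and -0.14 for the chr3:36947881-36947932 peak, -0.067 and -0.11 for Scmh1, -0.18 and -0.22 for Cnnm4, -0.18 and -0.22 for Ifit2, -0.16 and -0.19 for Spg20, and -0.31 and -0.35 for Btbd8. With DESeq2 and edgeR they were -0.13 and -0.12 for miR-215-3p and -0.67 and -0.49 for Uty. With 1 library left out the ranges were -0.40 to 0.50 for miR-215-3p, -0.035 to 0.24 for miR-215-5p, -0.36 to 0.15 for Lamp2 and -0.42 to 0.036 for Smpdl3a.

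The deviations of same-numbered libraries of the 2 genotypes had correlations from -0.52 to 0.31 over 6 pairs for peaks (median -0.26, 1 pair over 0.1) and from -0.36 to 0.30 for miRNAs (median 0.13, 3 pairs over 0.1), and 1 and 3 of 6 WT libraries correlated best with their own number. Not every pair was over 0.1, so the numbers were not taken to pair the samples. With the replicate block 0 peaks were called, the relative medians were 0.12 for miR-194-5p and -0.19 for miR-192/miR-215 peaks, and 6 miRNAs were called. In WT replicates 5 and 6 the depth leaves most members at few reads, so changes of low peaks were not detectable there.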
